A study of Mus musculus with 7 samples.

Results

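The 7 genes described here encode the core of MHC class II antigen presentation: H2-Aa, H2-Ab1 and H2-Eb1 (chains of the peptide receptor), Cd74 (the invariant chain), H2-DMa and H2-DMb1 (the peptide editor) and Ciita (the transactivator). They were taken by symbol from a table of 37310 genes, and all 7 were among the 14626 genes that passed the filter on low counts and were tested. The study sequenced RNA in bulk from mouse intestinal crypt cells marked by Bmi1, a Polycomb gene used to label reserve stem cells, and compared 3 diets. All mice carried BmicreERT2, a tamoxifen-dependent Cre driven by Bmi1, and the Rosa26RFP red reporter, and were 3 months old. Diets began at weaning. They were AIN76A, a purified control diet (2 libraries), NWD1, a purified diet on a Western pattern, richer in fat and poorer in calcium, vitamin D3 and nutrients that donate methyl groups (3 libraries), and NWD2, the same diet with its calcium and vitamin D3 raised (2 libraries). The sort kept strongly red cells that carried Epcam, an epithelial surface protein, and lacked CD45, a leukocyte one. All libraries were labelled male except NWD1 replicate 2. The labels do not say whether libraries of a diet came from separate animals or pools, so p-values measure only the spread between these libraries, and tamoxifen dosing is not given in the sources used here.

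As background, class II molecules are pairs of an alpha and a beta chain that carry peptides from the endosomal pathway to the cell surface, where CD4+ T cells read them. The invariant chain Cd74 fills the groove during assembly, cathepsins trim it, and H2-DM then swaps its last fragment for other peptides. Dendritic cells, macrophages and B cells make class II constitutively, and intestinal epithelium, crypt stem cells included, can make it too, with interferon gamma as a well known inducer. Ciita does not bind DNA itself: it docks on a complex of RFX, CREB and NF-Y proteins that sits on the X and Y boxes upstream of class II genes.

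The promoter stretches of H2-Aa, H2-Eb1 and H2-DMb1 are shown because these genes varied together and their windows hold letters like those of X and Y boxes. They are from RefSeq on GRCm38.p6, 5′ to 3′ on the gene's strand, with the core of an X box and then a Y box in capitals. H2-Aa lies at chr17:34287852-34287922 (minus strand), H2-Eb1 at chr17:34305758-34305827 (plus strand) and H2-DMb1 at chr17:34153079-34153149 (plus strand).
H2-Aa: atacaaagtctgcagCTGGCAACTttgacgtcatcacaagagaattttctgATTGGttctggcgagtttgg
H2-Eb1: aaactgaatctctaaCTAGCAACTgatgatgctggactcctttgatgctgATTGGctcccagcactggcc
H2-DMb1: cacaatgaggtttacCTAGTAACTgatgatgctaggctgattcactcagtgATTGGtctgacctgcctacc
The X core searched was CTNGNAACT, letters chosen after these 3 windows had been seen, and the Y box was ATTGG, both on either strand. The boxes stood 27, 26 and 27 bases apart in H2-Aa, H2-Eb1 and H2-DMb1. Among 32851 mouse promoter windows of 300 bases (250 before and 50 after a start), 4.1% held the X core, 37.4% held the Y box, and 37 windows (0.113%) held an X core followed by a Y box on the same strand with a gap of 10 to 40 bases. The windows of H2-Aa, H2-Eb1 and H2-DMb1 are among these 37. H2-DMa had 2 windows, of which 1 held the Y box letters and 0 held the X core letters. H2-Ab1, Cd74 and Ciita had 0 windows in this set, so they were not searched. A match describes the letters and was not tested as a binding site.

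Total counts ranged from 14034315 in NWD1 replicate 3 to 77959407 in NWD2 replicate 2, so 1 count was worth between 0.0137 and 0.0664 CPM (counts scaled to the library total by TMM). The diet of NWD1 replicate 3 was less certain than that of the others. The deposited table of TPM values, which are scaled by gene length and library, has no column for it but has 1 column headed as NWD2 replicate 3, a title no sample has. Results that rest on this library are given with and without it. Epithelial genes were abundant in every library, with 5947 to 8222 CPM summed over 9 markers. Epcam was lowest in NWD2 replicate 2, at 225 CPM against 510.0 to 1338 CPM elsewhere. In bulk RNA, fewer cells that express a gene and less RNA per cell cannot be told apart.

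Class II transcripts were present in all 7 libraries, and their level differed more between libraries than that of most genes. The 7 genes summed to 680 and 296 CPM in AIN76A replicates 1 and 2. The sum was 76.6, 174 and 605 CPM in NWD1 replicates 1 to 3, and 91.1 and 147 CPM in NWD2 replicates 1 and 2. Both AIN76A libraries and NWD1 replicate 3 were thus high and the other 4 were low, so the NWD1 libraries were split. For 6 of the 7 genes these were the 3 highest libraries, the exception being Ciita.

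H2-Aa, the alpha chain of the I-A receptor, had 71.4 and 32.0 CPM on AIN76A, 4.84, 8.88 and 45.1 CPM on NWD1, and 4.23 and 11.5 CPM on NWD2. It had the widest range of the 7 genes: the highest library held 16.9 times the level of the lowest, against a median of 2.47 times over all genes tested. H2-Ab1, its beta chain partner, had 180 and 81.3 CPM on AIN76A, 26.3, 64.9 and 161 CPM on NWD1, and 31.2 and 47.1 CPM on NWD2. The beta chain thus ranged less than the alpha chain, 6.82 times between its extremes. H2-Eb1, the beta chain of the I-E receptor, had 47.4 and 19.8 CPM on AIN76A, 6.93, 16.1 and 49.8 CPM on NWD1, and 7.69 and 13.1 CPM on NWD2. Both NWD2 libraries lay below both AIN76A libraries for each of these chains, while NWD1 replicate 3 lay within or above the AIN76A values and the other NWD1 libraries below them. The gene of the I-E alpha chain is carried in the table as H2-Ea-ps, a pseudogene symbol, and had 1 count over all libraries.

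Cd74, whose product guards the peptide groove and escorts new class II pairs to endosomes, was the most abundant of the 7 per length, by deposited TPM. By count it had 343 and 140 CPM on AIN76A, 28.5, 71.8 and 302 CPM on NWD1, and 35.4 and 60.4 CPM on NWD2. Its libraries stood in the same order as those of H2-Ab1, with both AIN76A libraries above both NWD2 libraries and NWD1 replicate 1 lowest.

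The peptide editor is a pair of H2-DM chains that stays in endosomes. H2-DMa, the alpha chain, had 23.4 and 12.8 CPM on AIN76A, 7.55, 9.12 and 24.2 CPM on NWD1, and 8.71 and 9.33 CPM on NWD2. It had the narrowest range, with 3.20 times between its extremes. H2-DMb1, the beta chain, had 13.4 and 6.38 CPM on AIN76A, 1.24, 1.93 and 15.5 CPM on NWD1, and 1.72 and 3.51 CPM on NWD2. The beta chain followed the same split of libraries as the alpha chain, over a range of 12.5 times. H2-DMb2, a close relative with which reads could be shared, had 36 counts over all libraries.

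Ciita, the transactivator, was low throughout and followed another order. It had 2.23 and 2.97 CPM on AIN76A, 1.26, 1.61 and 7.97 CPM on NWD1, and 2.102 and 2.56 CPM on NWD2, from 61 to 159 counts per library. NWD1 replicate 3 stood highest, while the AIN76A and NWD2 libraries overlapped. The table carries 2 rows with the symbol Ciita. The values above are those of ENSMUSG00000022504.8, the identifier that a current gene table pairs with the symbol, and the other row, ENSMUSG00000075404.4, held 2 to 39 counts per library and at most 0.80 CPM.

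**Figure D1:**
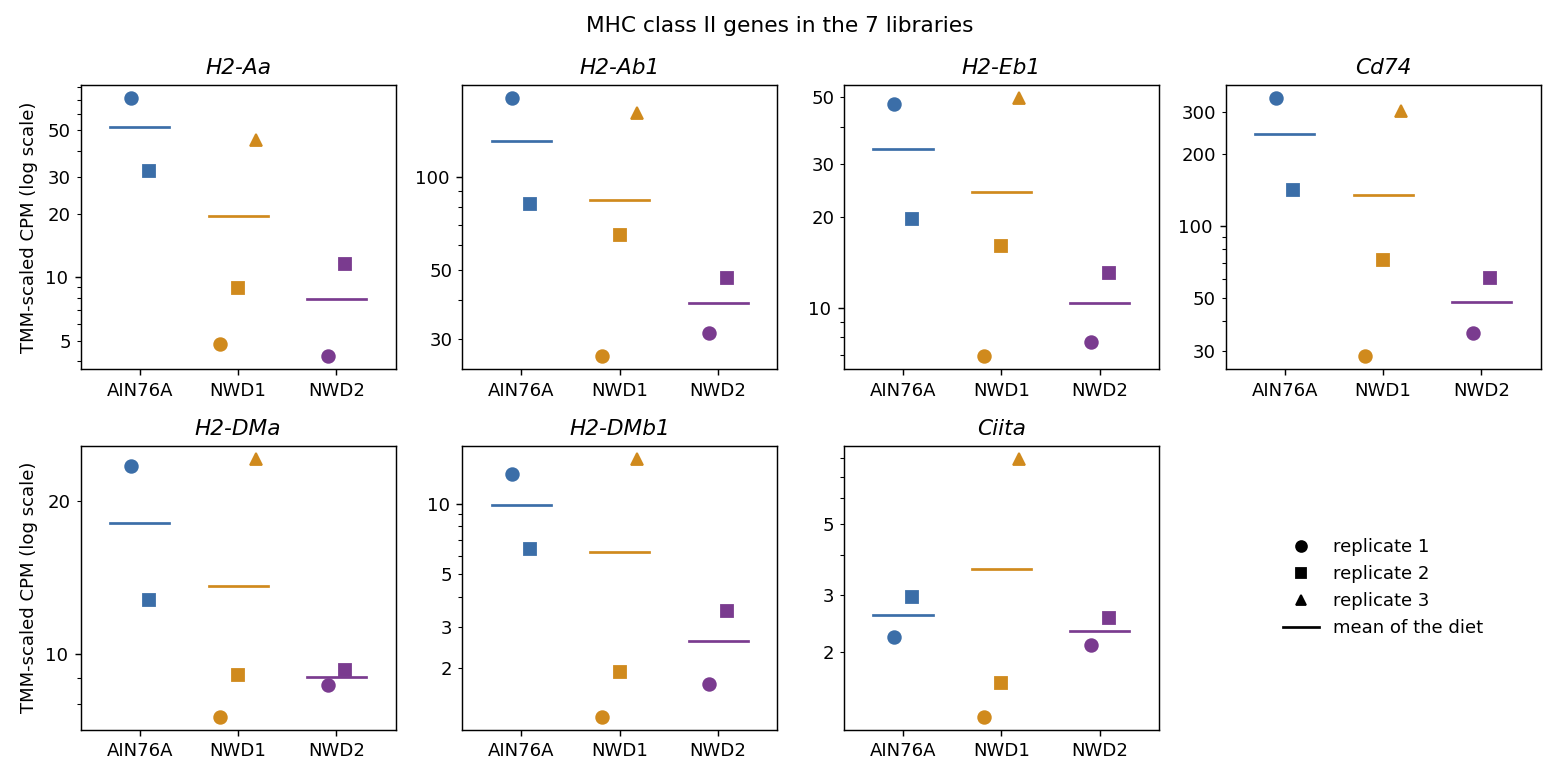
Level of each of the 7 class II genes in each library, as TMM-scaled CPM on a log axis with its own range per gene, by diet; symbols give the replicate number and horizontal lines the mean of the diet. Both NWD2 libraries lie below both AIN76A libraries for every gene but Ciita, and NWD1 replicate 3 lies well above the other 2 NWD1 libraries in all 7 panels.

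Levels of different genes can be compared only per length, for which the deposited TPM served, over 6 libraries. In AIN76A, Cd74 had 294 ± 133 TPM (SD, n = 2) and H2-Ab1 137 ± 53.1 TPM (SD, n = 2). H2-Eb1 followed with 48.5 ± 21.4 TPM (SD, n = 2) and H2-Aa with 44.8 ± 17.7 TPM (SD, n = 2). H2-Eb1 was slightly above H2-Aa in both AIN76A libraries (63.6 against 57.4 TPM and 33.4 against 32.3 TPM). H2-DMa had 19.2 ± 5.04 TPM, H2-DMb1 11.6 ± 4.10 TPM and Ciita 0.77 ± 0.27 TPM (SD, n = 2 each). The order was Cd74, H2-Ab1, then H2-Eb1 in each of the 6 libraries, with H2-DMb1 and then Ciita at the bottom. H2-Aa and H2-DMa changed places between libraries. H2-Aa stood above H2-DMa on AIN76A (57.4 against 22.8 TPM and 32.3 against 15.6 TPM). It stood below in NWD1 replicate 1 (4.88 against 9.22 TPM), NWD1 replicate 2 (9.24 against 11.5 TPM) and NWD2 replicate 1 (4.06 against 10.1 TPM), and the pair was level in NWD2 replicate 2 (9.45 against 9.25 TPM).

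The 7 genes did not vary in fixed proportion. For every 100 counts of H2-Ab1 there were 39.7 and 39.3 counts of H2-Aa on AIN76A, 18.4, 13.7 and 28.1 on NWD1, and 13.6 and 24.5 on NWD2, so the alpha chain had the larger share in the libraries rich in class II. Cd74 showed the same split, with 191 and 173 counts per 100 of H2-Ab1 on AIN76A, 108, 111 and 188 on NWD1, and 113 and 128 on NWD2. H2-DMb1 per 100 counts of H2-DMa was 57.2 and 49.9 on AIN76A, 16.4, 21.1 and 64.3 on NWD1, and 19.7 and 37.6 on NWD2. By contrast the 2 beta chains kept a nearly constant ratio, with 24.4 to 31.0 counts of H2-Eb1 per 100 of H2-Ab1 over all 7 libraries. Ciita gave 12.4 and 36.6 counts per 1000 of H2-Ab1 on AIN76A, 47.9, 24.8 and 49.5 on NWD1, and 67.3 and 54.3 on NWD2, and so was not proportional to the chain genes. These ratios are descriptions without a test.

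Across the 7 libraries, Pearson's r of log2 CPM lay between 0.931 and 0.995 over the 15 pairs of genes without Ciita, and between 0.622 and 0.777 over the 6 pairs with it. Paired values share the same libraries and depths, and the libraries fell into a high and a low group, so these r are descriptions only. The SD of log2 CPM over libraries was 1.60 for H2-Aa, 1.45 for H2-DMb1 and 1.42 for Cd74. It was 1.13 for H2-Eb1, 1.08 for H2-Ab1, 0.84 for Ciita and 0.69 for H2-DMa, against a median of 0.45 over all genes tested. All 7 genes were thus more variable than the median gene.

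**Figure D2:**
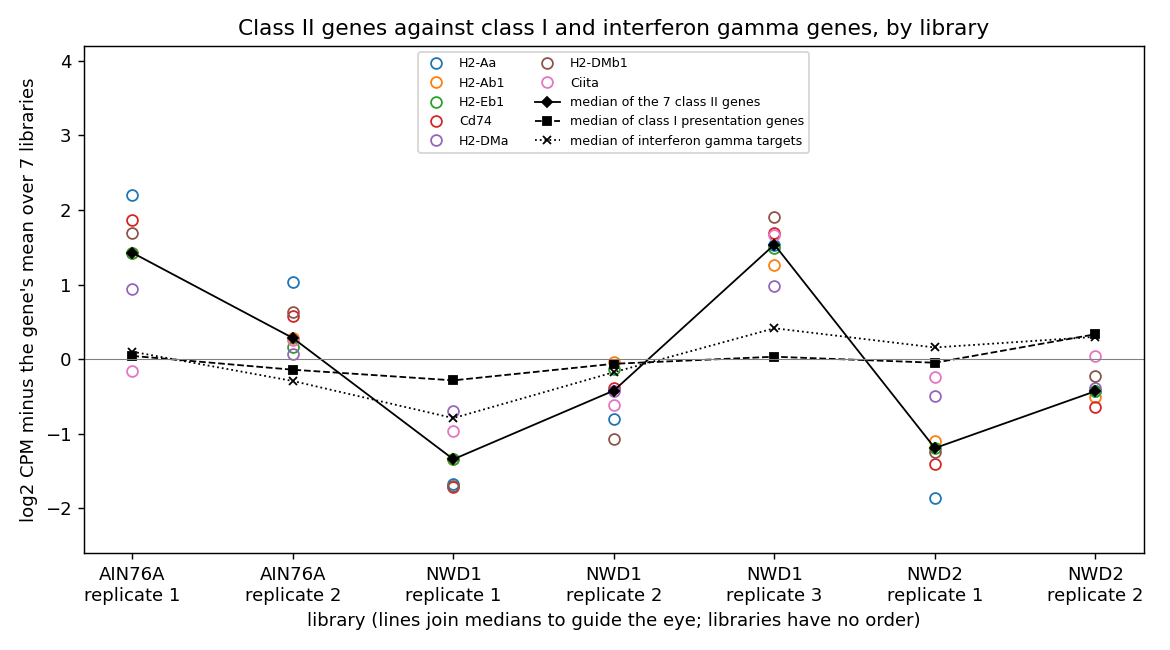
Log2 CPM of each class II gene minus its own mean over the 7 libraries (open circles), with the median of the 7 (diamonds) and the medians of class I presentation genes (squares) and interferon gamma targets (crosses), by library. The class II median spans -1.34 to 1.54, while the class I median stays between -0.28 and 0.34.

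The first question is how cells on the calcium- and vitamin-D3-raised diet compared with the controls. Class II genes were lower with NWD2: all 7 fitted log2 fold changes were negative, as were those of 52.6% of all genes, and their median was -1.74 where all genes tested had a median of -0.03. H2-Aa was 6.56-fold lower (log2 fold change -2.71, SE 0.98), Cd74 5.04-fold lower (-2.33, SE 0.93) and H2-Ab1 3.33-fold lower (-1.74, SE 0.72). The editor was lower by less in its alpha chain, H2-DMa (-1.01, SE 0.55), than in its beta chain, H2-DMb1 (-1.92, SE 1.05), and H2-Eb1 had -1.69 (SE 0.80). Ciita, at -0.16 (SE 0.79), was close to 0. None of the 7 passed edgeR's quasi-likelihood test after Benjamini-Hochberg adjustment over all genes (adjusted p = 0.996 for each), and 0% of all genes did. At an unadjusted p under 0.05 stood 3 members, all lower, namely H2-Aa (unadjusted p = 0.0210), Cd74 (unadjusted p = 0.0329) and H2-Ab1 (unadjusted p = 0.0383), against 2.65% of all genes that edgeR placed lower at that p. For 6 members, all but Ciita, both NWD2 libraries lay below both AIN76A libraries, which held for 13.2% of all genes. NWD1 replicate 3, whose diet was less certain, lay above AIN76A replicate 2 for each of these 6, so counted with NWD2 it would end the separation. Left out, it did not move the median (-1.74). DESeq2 and limma voom each called 0 of the 7. Without a filter on low counts edgeR called 5 of the 7 (all but H2-DMa and Ciita) and 0.776% of all genes, in a fit over 24477 genes where H2-Aa took the pooled spread and had an SE of 0.40. The median was -1.05 without AIN76A replicate 1 and -3.80 with a term for the i5 index, a library barcode that differed between the AIN76A and the NWD2 libraries, a term that only the split NWD1 libraries can separate from diet.

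The second question is how cells on the unmodified Western-style diet compared with the controls. The fitted values were smaller and rested on which NWD1 libraries were counted. The chains and Cd74 had negative log2 fold changes, from -1.41 (SE 0.83) for H2-Aa and -0.85 (SE 0.80) for Cd74 to -0.64 (SE 0.63) for H2-Ab1 and -0.48 (SE 0.70) for H2-Eb1. H2-DMa had -0.42 (SE 0.50), H2-DMb1 -0.71 (SE 0.92) and Ciita 0.43 (SE 0.73). The median was -0.64 against 0.01 over all genes tested, and 6 of 7 values were below 0, as were 49.4% of all genes. None of the 7 passed (edgeR adjusted p from 0.878 to 0.928), 0 stood at an unadjusted p under 0.05 where 3.42% of all genes did, and 0% of all genes passed. Groups overlapped for all 7 genes, while 8.61% of all genes were lower with NWD1 without overlap. Without NWD1 replicate 3, both remaining NWD1 libraries lay below both AIN76A libraries for all 7 genes, Ciita included, where 14.1% of all genes did so. The median was then -1.54, with H2-Aa at -2.91, H2-DMb1 at -2.64 and Cd74 at -2.27 (edgeR adjusted p = 0.996 for each, within 0.0149 to 1 for H2-Aa over all alternatives). Without AIN76A replicate 1 the median was 0.04, so the direction rested on that library, and the size on NWD1 replicate 3 as well. Without the filter on low counts edgeR called 1 member, H2-Aa (adjusted p = 0.0149), and 0.347% of all genes.

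The last question is how cells on NWD2, with its calcium and vitamin D3 raised, compared with those on NWD1. All 7 log2 fold changes were negative, as were those of 46.5% of all genes, and ran from -1.48 (SE 0.85) for Cd74 to -0.58 (SE 0.51) for H2-DMa, with a median of -1.21 against 0.05 over all genes tested. H2-Aa had -1.30 (SE 0.88), H2-Eb1 -1.21 (SE 0.74), H2-DMb1 -1.21 (SE 0.98), H2-Ab1 -1.10 (SE 0.66) and Ciita -0.59 (SE 0.73). None passed (edgeR adjusted p from 0.711 to 0.834). At an unadjusted p under 0.05 stood 0 members against 7.89% of all genes, and 0% of all genes passed. Groups overlapped for all 7, where 14.5% of all genes were lower with NWD2 without overlap. The direction rested on NWD1 replicate 3: without it the median was 0.11, with H2-Aa at 0.20, H2-DMb1 at 0.72 and Ciita at 0.69 (edgeR adjusted p = 0.956, 0.775 and 0.746). Without the filter on low counts edgeR called 2 members, H2-Aa and Cd74, and 1.57% of all genes. The comparisons share libraries with each other, AIN76A in the first pair and NWD1 or NWD2 in the last, so their values are not independent.

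**Figure D3:**
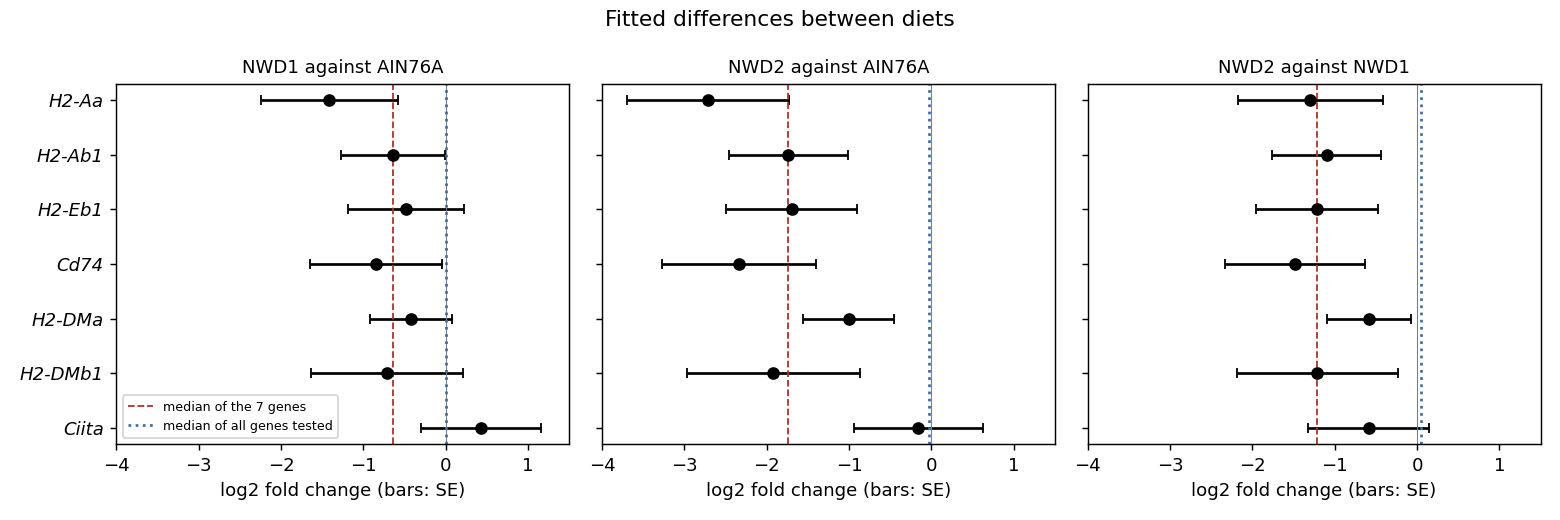
Fitted log2 fold change of each class II gene in the 3 comparisons, with bars of 1 SE; the dashed line is the median of the 7 genes and the dotted line the median of all genes tested. The medians of the 7 are -0.64, -1.74 and -1.21, and the Ciita bars span 0 in all 3 panels.

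The libraries also differed by i5 index, N503 for both AIN76A libraries and NWD1 replicates 1 and 2, and N504 for NWD1 replicate 3 and both NWD2 libraries. Within N503, NWD1 (2 libraries) minus AIN76A (2 libraries) had a median over the 7 genes of -1.55 on the log2 scale, from -2.87 for H2-Aa to -0.85 for Ciita. Within N504, NWD2 (2 libraries) minus NWD1 replicate 3 alone had a median of -2.31, with H2-Aa at -2.69, Cd74 at -2.71 and Ciita at -1.78. All 7 genes were thus lower in the later-named diet (NWD1 within N503, NWD2 within N504). The N504 value, however, rests on 1 NWD1 library, replicate 3, whose diet was less certain. NWD2 and AIN76A shared no index, so index and diet cannot be told apart between them.

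**Figure D4:**
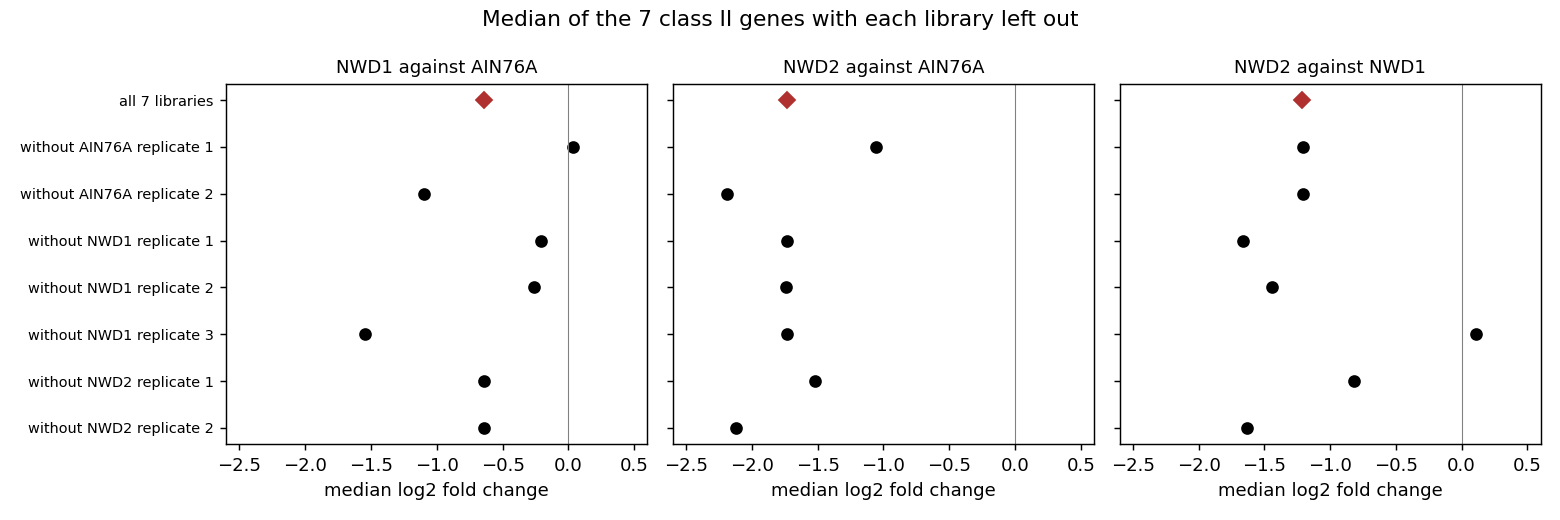
Median log2 fold change of the 7 class II genes in each comparison with all libraries (diamond) and with each library left out in turn (circles). The median runs from -1.54 to 0.04 for NWD1 against AIN76A, from -2.19 to -1.05 for NWD2 against AIN76A, and from -1.66 to 0.11 for NWD2 against NWD1.

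The summed level of the partners of Ciita on DNA varied little between libraries, although 1 of them, Rfxap, varied widely. All 7 genes of the complex (Rfx5, Rfxap, Rfxank, Creb1, Nfya, Nfyb and Nfyc) were tested, and 0 had an unadjusted p under 0.05 in any comparison. Of all genes 3.42% had such a p for NWD1 against AIN76A, 3.83% for NWD2 against AIN76A and 7.89% for NWD2 against NWD1, so in a list of this size 0 is near the background. The same holds for the counts of 0 in the short lists that follow. Their summed level was 98.0 to 119 CPM on AIN76A, 108 to 114 CPM on NWD1 and 114 to 122 CPM on NWD2. Their median log2 fold changes were 0.07 for NWD1 against AIN76A, -0.08 for NWD2 against AIN76A and 0.28 for NWD2 against NWD1. Most of that sum came from Nfyc, Creb1, Rfxank and Nfyb. Rfxank, an RFX subunit, had 20.5 and 19.0 CPM on AIN76A, 19.7, 22.2 and 20.6 CPM on NWD1, and 21.2 and 29.6 CPM on NWD2. Rfxap, another RFX subunit, had 2.25 and 4.55 CPM on AIN76A, 7.80, 7.96 and 6.57 CPM on NWD1, and 5.15 and 0.77 CPM on NWD2. All 3 NWD1 libraries thus lay above the others for Rfxap (log2 fold change 1.14 for NWD1 against AIN76A, edgeR unadjusted p = 0.127, and -1.33 for NWD2 against NWD1, edgeR unadjusted p = 0.0819).

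Genes that cut antigens and the invariant chain were mostly abundant. Of 9 tested, all 9 were higher with NWD2 than with NWD1, 4 of them at an unadjusted p under 0.05 where 1.14% of all genes were, and 0 passed the adjusted threshold. Those 4 were the cathepsins Ctsd (log2 fold change 0.69, edgeR unadjusted p = 0.0205), Ctss (0.67, unadjusted p = 0.0347) and Ctsl (0.95, unadjusted p = 0.0447) and the legumain gene Lgmn (0.996, unadjusted p = 0.0218). Ctss, the main cathepsin that degrades the invariant chain in professional presenting cells, had 152 and 101 CPM on AIN76A, 107, 112 and 117 CPM on NWD1, and 205 and 151 CPM on NWD2. Against AIN76A, 7 of 9 were higher and 2 lower with NWD2, and 2 higher and 7 lower with NWD1. Ctse, an endosomal protease, had 0.56 and 0.60 CPM on AIN76A, 0.27, 12.4 and 2.66 CPM on NWD1, and 10.7 and 2.96 CPM on NWD2, and so was higher with NWD2 than with AIN76A in both libraries (log2 fold change 3.55, edgeR unadjusted p = 0.0269). Ifi30, a thiol reductase that unfolds antigens, had values from -0.51 to 0.44 over the 3 comparisons. Of the tetraspanins that accompany class II in endosomes, Cd63, Cd82 and Cd9 were tested, and 0 of the 3 had an unadjusted p under 0.05.

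Other class II genes and co-stimulatory genes were scarce. H2-DMb2, H2-Oa, H2-Ob, H2-Eb2 and H2-Ea-ps had 36, 7, 12, 1 and 1 counts over all libraries, and none passed the filter on low counts. Of 8 co-stimulatory and co-inhibitory ligand genes, 3 were tested. Icosl had 3.56 to 9.63 CPM and Cd274 0.22 to 1.53 CPM. Cd276 was lower with NWD2 than with NWD1 (log2 fold change -1.56, edgeR unadjusted p = 0.0220, adjusted p = 0.548). Cd80, Cd86 and Cd40, the classical co-stimulators of professional presenting cells, had at most 6 counts in any library.

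Class I presentation genes were abundant. Of 17 found, 16 were tested, and 0 had an unadjusted p under 0.05 in any comparison, with medians of -0.09, 0.28 and 0.19 for NWD1 against AIN76A, NWD2 against AIN76A and NWD2 against NWD1. B2m, the common light chain of class I, had 2184 and 2410 CPM on AIN76A, 2034, 2748 and 1724 CPM on NWD1, and 2796 and 2650 CPM on NWD2. H2-K1, a class I heavy chain, had 1357 and 1317 CPM on AIN76A, 1142, 1911 and 1294 CPM on NWD1, and 1493 and 2364 CPM on NWD2. Nlrc5, the class I transactivator, was at most 1.26 CPM.

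Interferon gamma itself had 0 counts in all 7 libraries, which allows up to 0.0412 to 0.199 CPM per library (3 counts, counting error only). The 9 tested genes of its receptor and relay had 0 members at an unadjusted p under 0.05. Irf1, the relay factor that acts on the Ciita gene, had 192 and 218 CPM on AIN76A, 189.9, 226 and 252 CPM on NWD1, and 196 and 273 CPM on NWD2. Of 24 interferon gamma targets outside class II, 21 were tested. Their median log2 fold changes were 0.03 for NWD1 against AIN76A, 0.60 for NWD2 against AIN76A and 0.45 for NWD2 against NWD1. Beside these, the class II medians were -0.64, -1.74 and -1.21, the last being 0.11 without NWD1 replicate 3, and the difference between the sets was not tested. Nos2, the inducible nitric oxide synthase, had 50.1 CPM in AIN76A replicate 2 and at most 7.10 CPM elsewhere, and was the only target at an unadjusted p under 0.05 (NWD1 against AIN76A, -2.87, edgeR unadjusted p = 0.0424, adjusted p = 0.878). Across libraries the targets' median, centred as in the plot by library, was 0.10 and -0.29 on AIN76A, -0.79, -0.17 and 0.42 on NWD1, and 0.16 and 0.30 on NWD2.

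Because some leukocytes (dendritic cells, macrophages and B cells) make class II constitutively, their markers were measured in the same libraries. Markers of T and NK cells, of all leukocytes and of stroma were measured beside them. Of 22 macrophage and dendritic cell markers, 19 to 21 were under 1 CPM in each library. Their sum was 12.7 to 20.4 CPM on AIN76A, 16.9 to 24.4 CPM on NWD1 and 11.8 to 28.1 CPM on NWD2, most of it from Itgam. Without Itgam the sum was 3.89 and 5.30 CPM on AIN76A, 7.10, 4.95 and 7.90 CPM on NWD1, and 2.86 and 6.47 CPM on NWD2. Several defining genes were at or near 0, with Batf3 and Clec9a at 0 counts in all libraries, Flt3 at most 1 count, Itgax at most 4 and Csf1r at most 15. Mrc1 was higher, at 0.70 to 3.11 CPM. Lyz2 had 2.07 and 1.84 CPM on AIN76A, 4.22, 1.11 and 4.58 CPM on NWD1, and 0.87 and 1.53 CPM on NWD2. It was lower with NWD2 than with NWD1 (log2 fold change -1.45, edgeR unadjusted p = 0.0447). Between those diets 4 of the 7 tested markers were lower and 3 higher. C1qa, a macrophage complement gene, was lower with NWD2 than with AIN76A (log2 fold change -2.63, edgeR unadjusted p = 0.00323) at levels of at most 0.87 CPM. Tyrobp, an adaptor of myeloid receptors, was higher in that comparison (3.13, edgeR unadjusted p = 0.0385) at levels of at most 0.66 CPM, and of the 7 tested markers 4 were higher and 3 lower. C1qb and C1qc had at most 8 and 5 counts.

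B and plasma cell markers without Sdc1, which epithelium also expresses, summed to 0.72 and 1.55 CPM on AIN76A, 6.48, 1.08 and 5.44 CPM on NWD1, and 3.52 and 1.93 CPM on NWD2. NWD1 replicate 1, which had the lowest class II sum, thus had the highest B cell sum. Pax5, a B cell transcription factor, had at most 1 count in any library. Ighm had 0.072 and 0 CPM on AIN76A, 2.65, 0.37 and 0.80 CPM on NWD1, and 0.52 and 0.24 CPM on NWD2. This immunoglobulin gene was higher with NWD1 than with AIN76A (log2 fold change 4.94, edgeR unadjusted p = 0.00314), as with NWD2 (3.20, edgeR unadjusted p = 0.0316). Cd79a was higher with NWD1 than with AIN76A (2.92, edgeR unadjusted p = 0.0427). Of the 6 tested markers, Sdc1 included, 5 were higher and 1 lower in both comparisons with AIN76A. T and NK cell markers summed to 3.31 and 2.93 CPM on AIN76A, 2.4005, 11.0 and 26.9 CPM on NWD1, and 10.4 and 14.9 CPM on NWD2. They were highest in NWD1 replicate 3, a library high in class II, and low in both AIN76A libraries, which were high in class II as well. All 11 tested were higher with each Western-style diet than with AIN76A, 6 with NWD1 and 5 with NWD2 at an unadjusted p under 0.05, where 2.52% and 1.18% of all genes were. The NWD1 values leaned on replicates 2 and 3, since the sum in NWD1 replicate 1 was below both AIN76A libraries. They are given only with replicate 3, whose diet was less certain. Ptprc, which encodes CD45, had 3.94 and 2.59 CPM on AIN76A, 5.75, 1.51 and 5.11 CPM on NWD1, and 1.17 and 1.48 CPM on NWD2, so both NWD2 libraries were below both AIN76A libraries. It was 1 of 3 pan-leukocyte markers that were lower with NWD2 than with AIN76A, while the other 7 of the 10 were higher, and the median log2 fold change of the 10 was 1.201. Vav1, a signalling gene of blood cells, had 23.2 and 10.7 CPM on AIN76A, 24.6, 7.99 and 18.3 CPM on NWD1, and 5.23 and 5.47 CPM on NWD2, lower with NWD2 than with AIN76A (log2 fold change -1.66, edgeR unadjusted p = 0.0130). Rac2, a GTPase of blood cells, was lower in the same comparison (-1.51, edgeR unadjusted p = 0.0298). Laptm5, a lysosomal protein of blood cells, was higher (3.57, edgeR unadjusted p = 0.00981), with 0.018 and 0.12 CPM on AIN76A and 0.49 and 1.11 CPM on NWD2, as was Cd53, a leukocyte tetraspanin (2.76, edgeR unadjusted p = 0.0341). Stromal and endothelial markers summed to 8.93 to 17.4 CPM over all libraries. Of these Vim, an intermediate filament gene, had 5.71 and 9.31 CPM on AIN76A, 8.75, 7.54 and 4.45 CPM on NWD1, and 2.12 and 1.14 CPM on NWD2, lower with NWD2 than with AIN76A (edgeR unadjusted p = 0.00143). Col3a1, a fibroblast collagen, was higher in that comparison (4.15, edgeR unadjusted p = 0.0121) at levels of at most 0.23 CPM, and 3 of the 5 tested were higher. The part of these cells in the class II levels was not tested.

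Markers of position along the gut were also measured. The 6 distal small intestine markers summed to 5887 and 2344 CPM on AIN76A, 2039, 1624 and 1697 CPM on NWD1, and 2126 and 1934 CPM on NWD2. Both AIN76A libraries were thus the highest, whereas NWD1 replicate 3, high in class II, was low. Most of the sum was Tff3 and Guca2a, and the markers did not share 1 order. Fabp6, an ileal bile acid carrier, had 60.4 and 134 CPM on AIN76A, 202, 18.7 and 8.57 CPM on NWD1, and 31.7 and 38.4 CPM on NWD2. Tff3, a goblet cell peptide, had 4180 and 1387 CPM on AIN76A, 1113, 1091 and 1091 CPM on NWD1, and 1280 and 1225 CPM on NWD2. It was lower than on AIN76A both with NWD2 (log2 fold change -1.15, edgeR unadjusted p = 0.0352) and with NWD1 (-1.34, edgeR unadjusted p = 0.0100). AIN76A replicate 1 stood far above all other libraries. Guca2a was lower with NWD1 than with AIN76A (-1.16, edgeR unadjusted p = 0.0133). The 11 proximal markers summed to 16564 and 18730 CPM on AIN76A, 14568 to 22191 CPM on NWD1, and 12100 and 30279 CPM on NWD2, so the groups overlapped. The part of gut position in the class II levels was not tested.

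**Figure D5:**
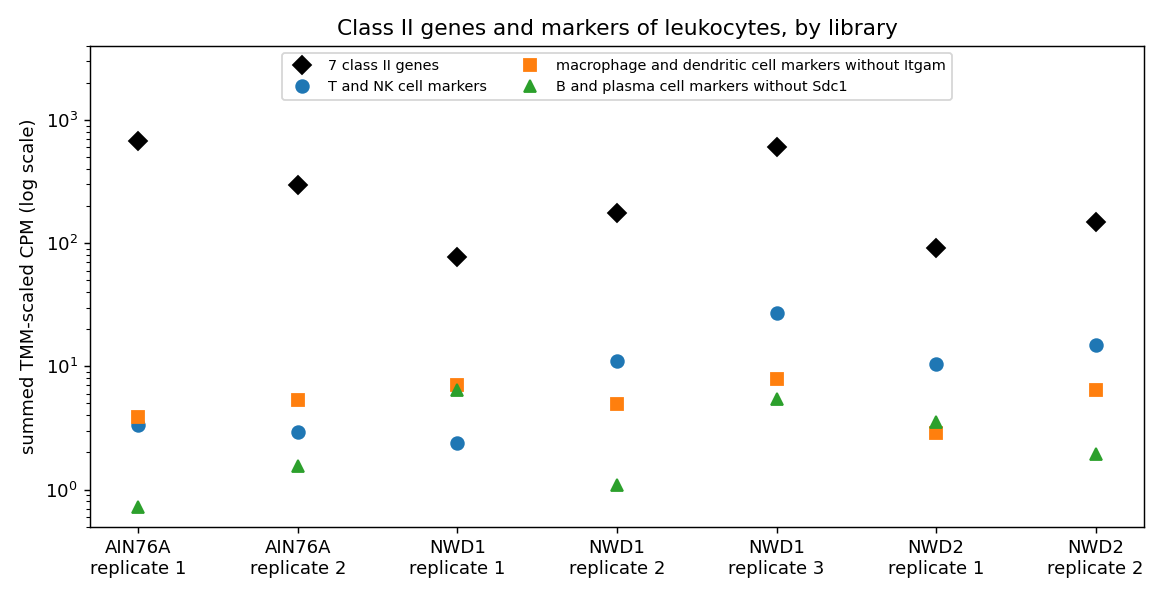
Summed TMM-scaled CPM, on a log axis, of the 7 class II genes (diamonds) and of T and NK cell (circles), macrophage and dendritic cell (squares) and B and plasma cell (triangles) markers in each library, without Itgam and Sdc1. The class II sum runs from 76.6 to 680 CPM. The marker sums drawn are at most 26.9 CPM. Those of T and NK cells and of macrophages and dendritic cells are highest in NWD1 replicate 3, and that of B and plasma cells in NWD1 replicate 1. Sums are not scaled by gene length, so their heights cannot be compared between lists. Pan-leukocyte markers, at 59.1 to 106 CPM, are not drawn.

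Genes whose profile was most like that of the class II genes were ranked by Pearson's r of log2 CPM with the mean profile of the 7, over 7 libraries and 8349 genes with a mean of at least 5 CPM. The highest were Ern2 (r = 0.95), an endoplasmic reticulum stress sensor of mucus-secreting cells, Bhlha15 (0.94), a transcription factor of secretory cells, Mlph (0.93), Myadm (0.91), Stx17 (0.91) and Hsp90b1 (0.91), a chaperone of the endoplasmic reticulum. Fhl1, Serpinf2, Cd97 and Nucb2 followed with 0.90, 0.90, 0.90 and 0.89. Ern2 had 46.0 and 33.4 CPM on AIN76A, 21.6, 32.0 and 42.0 CPM on NWD1, and 21.8 and 31.5 CPM on NWD2. Bhlha15 had 24.1 and 20.1 CPM on AIN76A, 11.0, 14.2 and 25.6 CPM on NWD1, and 13.9 and 19.7 CPM on NWD2. Both were high in the libraries high in class II, but their ranges, 2.13 and 2.33 times between extremes, were narrower. Those of the class II genes ran from 3.20 times for H2-DMa to 16.9 times for H2-Aa. With 7 points that share libraries and depth and 8349 genes ranked, these r are descriptions.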

How the data were processed

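SMART-Seq v4 amplification of RNA from sorted cells was followed by paired-end Nextera XT libraries that do not mark strand, per the labels' protocols. The authors deposited whole-number counts per Ensembl gene for 7 libraries, and TPM values. The submitters' processing notes name STAR 2.4.2a, HTSeq 0.6.1, edgeR and mm9. The annotation and gene lengths are not given in the sources used here. Of the TPM columns, 1 matched no sample and was not used, so deposited TPM cover 6 libraries.

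Counts were fitted with the edgeR 4.0.16 quasi-likelihood F test (R 4.3.3, TMM, filterByExpr, robust, diet only, all 7 libraries, 4 residual degrees of freedom), with Benjamini-Hochberg adjustment over 14626 genes and a threshold of 0.05. SEs are of fitted log2 fold changes. An exact test of 1 gene cannot go below p = 0.333 (2 against 2) or 0.1 (3 against 2), so none was run. The fit was tested on simulated data. Genes outside the 7 were named by level (the 4 highest of a list), by an unadjusted p under 0.05, or by likeness to the mean class II profile. Some list genes were singled out beyond that rule after their values were seen: Rfxap, Ctss, Nlrc5, Cd53, Cd86, Cd40 and the defining leukocyte markers. The members and lists were chosen with earlier results of these data known. Alternatives were other scalings and filters, DESeq2 1.42.0, limma 3.58.1 (voom, and log2 of TPM plus 1 or 0.1), replicate, sex and i5 terms, only 2 diets, thinning to equal depth, an adjusted p under 0.1 and each library left out. Summing both Ciita rows was added after seeing the data. Promoters are of GRCm38.p6, and no mm9 coordinates are given.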

Additional observations from a re-analysis of the deposited data

How the results depend on the processing

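Over all alternatives, log2 fold changes kept their sign for H2-Aa, H2-DMb1 and Cd74 in NWD1 against AIN76A, all members but Ciita in NWD2 against AIN76A, and H2-Ab1, H2-Eb1 and Cd74 with NWD2 against NWD1. Without a low-count filter edgeR called 85, 190 and 384 genes in the order NWD1 against AIN76A, NWD2 against AIN76A and NWD2 against NWD1, with 1, 5 and 2 members. In that fit the prior degrees of freedom were infinite for H2-Aa and for the median gene, against 5.29 with the filter. The member called with NWD1 against AIN76A was H2-Aa (adjusted p = 0.0149), and those with NWD2 against NWD1 were H2-Aa (adjusted p = 0.0382) and Cd74 (adjusted p = 0.00761). Over all alternatives edgeR, DESeq2 and limma adjusted p ran to 1 for H2-Aa and 0.999 for both in the last comparison. No other alternative called a member. DESeq2 called 1, 52 and 180 genes. Limma on log2(TPM + 1) called 1 gene with NWD1 against AIN76A and 1 with NWD2 against NWD1, and with a pseudocount of 0.1 it called 2 genes in the first of these. Fitting AIN76A and NWD2 alone called 6 genes between them, and an i5 term called 1 there and 2 in NWD2 against NWD1.

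Whether replicate numbers pair the libraries could not be told: deviations of same-numbered libraries correlated at -0.000223 to 0.261 over 6 pairs. In a diet with 2 libraries the deviations mirror each other, so these values are not independent. With a replicate block 1 gene was called with NWD2 against AIN76A, and the median of the members with NWD2 against NWD1 was 0.11, since the block leaves NWD1 replicate 3 without a partner. Under the block H2-Aa, H2-DMa, H2-DMb1 and Ciita had 0.16, 0.11, 0.70 and 0.70 with NWD2 against NWD1, and Ciita had -0.85 with NWD1 against AIN76A.

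The i5 term gave a median of -3.80 for the 7 genes in NWD2 against AIN76A, and -0.85 for Ciita in NWD1 against AIN76A. In that comparison Ciita was -0.29 by limma voom, -0.26 on log2(TPM + 1) and -0.57 on log2(TPM + 0.1). With NWD2 against NWD1 it was 0.15, 0.17 and 0.42 in the same order, and H2-DMb1 was 0.33 and 0.44 on the TPM scales, which lack NWD1 replicate 3. Thinning to the shallowest library gave Ciita 0.17 with NWD2 against AIN76A, and H2-DMa in NWD2 was 8.16 CPM by library size alone. The causes were not tested.

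Leaving out each library in turn, the members' median ran from -1.54 to 0.04, -2.19 to -1.05 and -1.66 to 0.11, and genes called were 0, 0 and 0 to 1 (1 without NWD2 replicate 2), in the order above. Where a sign turned, ranges were as follows. For NWD1 against AIN76A, H2-Ab1 ran from -1.51 to 0.036, H2-Eb1 from -1.54 to 0.27 and H2-DMa from -1.12 to 0.070, each highest without AIN76A replicate 1, and Ciita from -0.85 (without NWD1 replicate 3) to 0.85. Ciita ran from -0.35 to 0.069 for NWD2 against AIN76A, highest without AIN76A replicate 2. For NWD2 against NWD1, H2-Aa ran from -2.18 to 0.20, H2-DMa from -0.88 to 0.11, H2-DMb1 from -1.80 to 0.72 and Ciita from -1.01 to 0.69, each highest without NWD1 replicate 3. Depth limits Ciita, at 61 to 159 counts per library, and H2-DMb1 with 60 counts in NWD1 replicate 1.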
